A study of Mus musculus with 96 samples.

Results

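The miR-17-92 cluster is a run of 6 microRNA (miRNA) hairpins that are cut from 1 primary transcript. Its 9 members here are the mature miRNAs mmu-miR-17-5p, mmu-miR-17-3p, mmu-miR-18a-5p, mmu-miR-18a-3p, mmu-miR-19a-3p, mmu-miR-20a-5p, mmu-miR-19b-3p, mmu-miR-92a-3p and mmu-miR-92a-1-5p (mmu for mouse, left out from here on), chosen by name as products of that transcript out of 1978 mature miRNAs listed in every count table. Small RNA was sequenced from 4 cell types of the mouse heart, namely hematopoietic cells (HC), fibroblasts (FB), cardiomyocytes (CM) and endothelial cells (EC), at 6 time points of an acute myocardial infarction (MI). Each of the 24 groups had 4 libraries, 96 in all. The mice were male C57Bl/6J animals aged 12 to 14 weeks. MI was made by permanently tying the left anterior descending coronary artery, and hearts were taken 1, 3, 7, 14 or 28 days later (D1, D3, D7, D14 and D28), while D0 stands for hearts of mice without MI. RNA of 3 mice was pooled for a library, or of 2 where 1 was missing. CMs were separated by centrifugation, HCs with anti-CD45 beads, ECs with anti-CD144 beads and FBs by their attachment to a culture plate. Libraries were prepared per cell type, from 500 ng of RNA and 14 PCR cycles for CMs, 50 ng and 16 cycles for ECs, and 150 ng and 15 cycles for FBs and HCs, so preparation and cell type cannot be told apart. The study's methods call the 4 libraries of a group both biological and technical replicates. Its pooling step describes 4 pools of different RNA samples per time point and cell type. The p-values measure the spread between such pools, which holds technical differences and differences between mice, and not the spread between single mice.

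The cluster lies in an exon of the noncoding gene Mir17hg and is known as a proliferation-linked, MYC-induced transcript that is high in dividing and blood-forming cells. Its members fall into seed families, where the seed is the short 5′ stretch of a miRNA that pairs with its targets: the miR-17 family, which represses cell cycle inhibitors, the closely related miR-18 family, the miR-19 family, and the miR-92 family, known in endothelium as a brake on vessel growth. Because a hairpin can be cut, loaded and degraded at its own rate, members of 1 transcript can differ in level, and the question put to the data was whether they moved together.

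The 6 hairpins span chr14:115043671-115044506 on the plus strand of GRCm38, 836 bases, all inside exon 2 of the lincRNA gene Mir17hg (chr14:115042879-115046727, GENCODE M21 annotation). They follow each other as Mir17, Mir18, Mir19a, Mir20a, Mir19b-1 and Mir92-1. The sequences of the 9 members are shown because the seed families and the near-identical members decide which counts can be told apart. They are taken from RefSeq (GRCm38.p6), written 5′ to 3′ with bases 2 to 8, the seed, in capitals. The miR-17 seed is carried by 2 members.
miR-17-5p: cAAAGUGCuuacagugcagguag
miR-20a-5p: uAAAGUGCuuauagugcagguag
The miR-18 seed differs from it by 1 letter and is carried by 1 member.
miR-18a-5p: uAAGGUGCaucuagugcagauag
The miR-19 seed is shared by 2 members.
miR-19a-3p: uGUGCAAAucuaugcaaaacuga
miR-19b-3p: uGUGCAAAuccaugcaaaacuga
The miR-92 seed stands alone in the cluster.
miR-92a-3p: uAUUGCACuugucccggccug
The 3 remaining members come from the other arm of their hairpins, and each has a seed of its own.
miR-17-3p: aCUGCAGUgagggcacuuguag
miR-18a-3p: aCUGCCCUaagugcuccuucug
miR-92a-1-5p: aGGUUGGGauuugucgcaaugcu
Counted from 1 at the 5′ end, miR-20a-5p differs from miR-17-5p by C1U and C12U, and miR-19b-3p differs from miR-19a-3p by U11C alone. A near-copy from the X chromosome, miR-106a-5p, differs from miR-17-5p by U10A alone, and its sequence is shown because reads with 1 sequencing error could count for either.
miR-106a-5p: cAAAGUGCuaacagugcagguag
miR-19b-3p and miR-92a-3p also have a second hairpin on the X chromosome (Mir19b-2 and Mir92-2) with the same mature sequence, so their counts cannot be assigned to 1 locus. The specific 5p arms of those second hairpins, miR-19b-2-5p and miR-92a-2-5p, had 4 and 2 counts over all 96 libraries.

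Total counts assigned to mature miRNAs ran from 18286 to 65588543 per library, with medians by cell type of 17767800 (FB), 13945000 (CM), 11942000 (HC) and 3583270 (EC). Levels are given as CPM, which scales a count to the library's total of these counts, not divided by length, since the members are 21 to 23 bases long. Replicate 3 of HC D0 held the 18286 counts, so that 1 count is worth 54.7 CPM there, and of all libraries it was least like the other 3 of its group, with a mean Spearman correlation of 0.903 (across the miRNAs averaging 10 CPM or more in the group), against 0.961 to 0.965 for those 3. CM D0 replicate 1 came next, at 0.909. In EC D28 replicate 3 was the least like the others, at 0.92 against 0.929 to 0.94, and in FB D0 it was replicate 2, with 2217588 counts, at 0.966 against 0.978 to 0.985. The labelled cell types held against their markers: the cardiomyocyte miRNA miR-1a-3p had medians of 514966 CPM in CMs against 73313, 2294 and 50277 in ECs, FBs and HCs, and the endothelial miR-126a-3p had 202797 CPM in ECs against at most 27354 elsewhere. In FBs miR-199a-3p had a median of 46036 CPM against at most 3400 elsewhere, and in HCs miR-142a-3p, a miRNA of blood cells, had 6880 CPM against at most 32.8. The hematopoietic markers miR-150-5p and miR-155-5p did not separate HCs, at 2290 CPM in HCs and 2354 in ECs for the first and 140.0 in HCs and 158 in CMs for the second. In CMs a few muscle miRNAs took most counts, and edgeR's TMM scaling factors, which correct for this, were 0.289 to 0.357 at D0 and 0.491 to 2.04 later.

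All 9 members were detected in every cell type, and HCs held the most of 8 of them. Over the 24 libraries of a cell type, the summed cluster had a median by group of 3568 to 9795 CPM in HCs, 710.5 to 2385 in ECs, 697 to 3725 in FBs and 22.4 to 1372 in CMs. By mature counts miR-20a-5p was the most abundant member, with medians of 2705 CPM in HCs (1039 to 6583), 770.3 in ECs (48.7 to 1381), 376 in CMs (8.49 to 643) and 289.9 in FBs (145 to 2679). miR-17-5p followed the same order at 1023, 271, 142 and 105 CPM. miR-92a-3p had another order: ECs were highest at 247 CPM (144 to 629.7), then HCs at 212 (109 to 478), FBs at 95.4 (52.7 to 253) and CMs at 11.8 (0.688 to 21.7). The 3 passenger arms were low everywhere, with medians of at most 31.2 CPM, and in CMs miR-18a-3p and miR-92a-1-5p had 33 and 118 counts over all 24 libraries. These levels leave out the reads counted on hairpins, which for mir-92a-1 outnumbered the mature ones. By hairpin counts ECs were not highest at D0: mir-92a-1 had medians of 12157 CPM of hairpin counts in HCs, 10208 in FBs and 9503 in ECs. At D28 they were, with 25640 in ECs against 14531 in HCs and 6126 in FBs. With both counts added up, mir-92a-1 exceeded mir-20a in 18 of 24 CM, all 24 EC, all 24 FB and 20 of 24 HC libraries, by median ratios of 1.15, 5.34, 5.28 and 2.02.

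**Figure D1:**
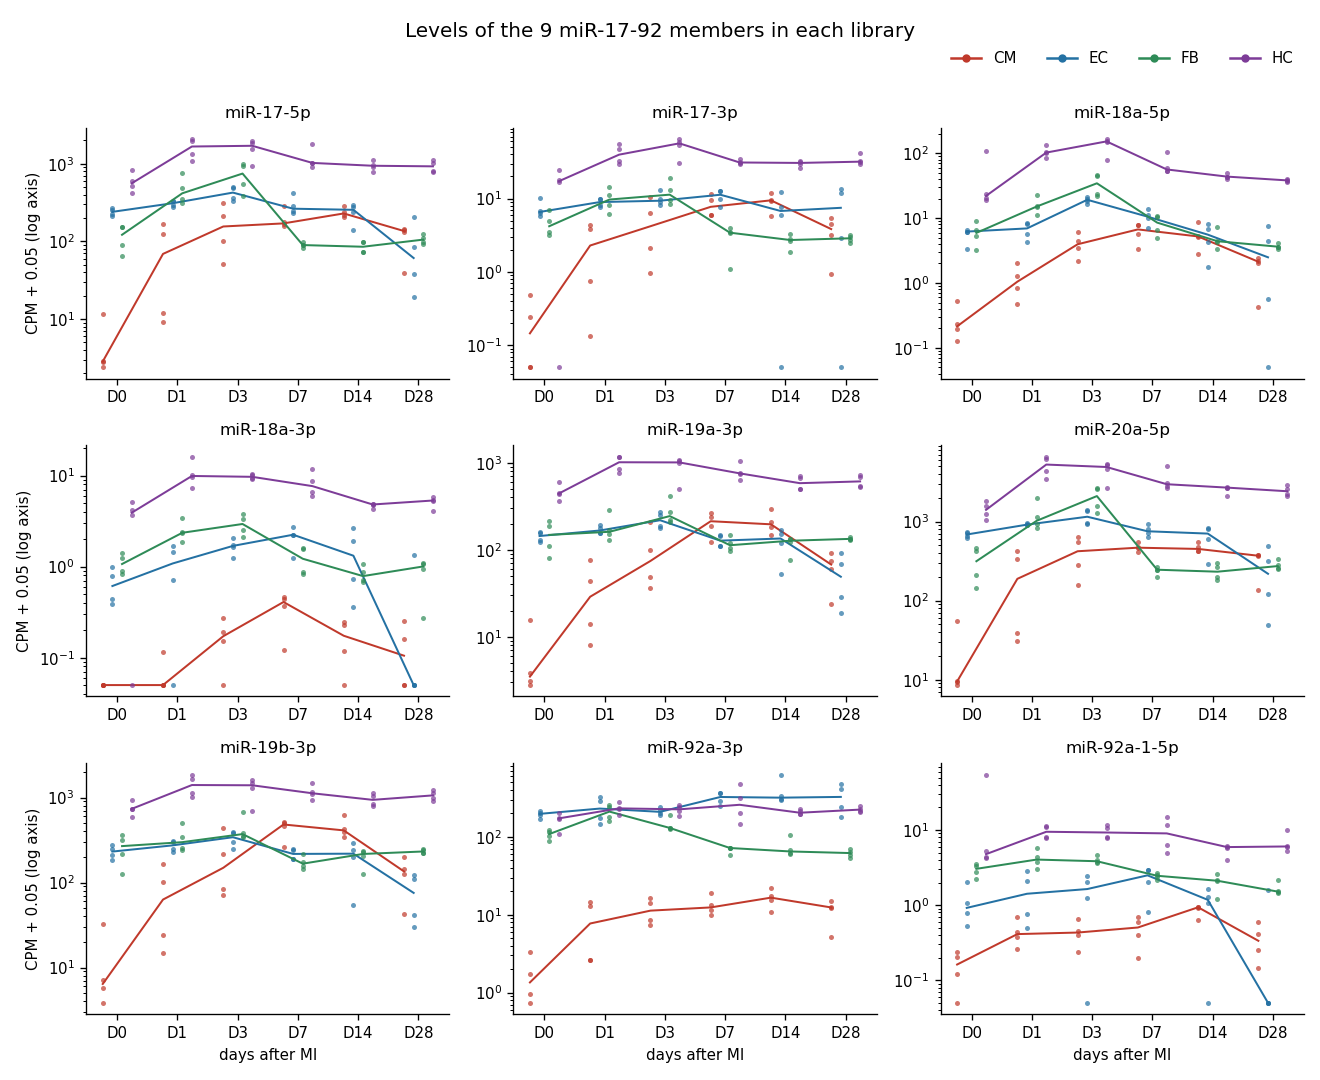
Levels of the 9 members in CPM (log axis, each value raised by 0.05) by day after MI, 1 panel per member; points are libraries, lines join group medians and colours mark the cell types. In CMs most members started far below the other cell types at D0, in FBs the miR-17 and miR-18 members peaked at D1 and D3, and in ECs miR-17-5p, miR-20a-5p and the miR-19 members dropped at D28 while miR-92a-3p did not.

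Cell types were compared over the mean of the 6 days, with all 96 libraries in 1 edgeR fit (in which the cell types of a day come from the same animals) and calls made at an adjusted p (Benjamini-Hochberg) under 0.05 with at least a doubling. Between FBs and HCs 7 of 9 members were lower in FBs, while 34.4% of the 712 tested miRNAs were. The log2 difference was -1.96 ± 0.17, adjusted p = 6.94e-19 for miR-17-5p and -2.02 ± 0.17, adjusted p = 7.06e-19 for miR-20a-5p, whereas miR-92a-3p differed by -0.54 ± 0.11, under the doubling. Between ECs and HCs all 9 passed, 8 lower in ECs (background 29.5%) and miR-92a-3p higher in ECs by 1.02 ± 0.11, adjusted p = 2.23e-13. Without HC D0 replicate 3 that difference was 0.82, under the doubling. ECs and FBs differed in 1 of 9 members, miR-92a-3p, higher in ECs by 1.56 ± 0.12, adjusted p = 2.54e-22, with 21.2% of all miRNAs higher there. All these differences of miR-92a-3p are of mature counts alone, without the more numerous reads counted on the hairpin mir-92a-1. Between ECs and FBs the other 8 members had log2 differences of -0.94 to 0.93, which lie next to the doubling. The count was 2 with DESeq2, with library size alone and without the filter on low counts, 2 in 47 of the 96 fits that left out 1 library, and 3 without replicate 4 of EC D28, FB D0 and HC D0. Comparisons with CMs rested on the scaling: with TMM 2 of 9 members were lower in CMs than in ECs, 3 than in FBs and 8 than in HCs (backgrounds 28.9, 33.3 and 32.0%), and with library size alone 8, 8 and 9. The TMM counts against ECs and FBs lay near their backgrounds, and those for library size alone have no background given. miR-92a-3p was lower in CMs than in ECs by both, at -3.56 ± 0.13, adjusted p = 4.26e-44 with TMM. At D0 alone, 3 of 9 members were lower in ECs than in HCs (as were 114 of the 712 miRNAs tested). There 8 of 9 were lower in CMs than in ECs and 9 of 9 lower than in FBs (backgrounds 28.9 and 32.4%). The members miR-18a-3p and miR-92a-1-5p passed the filter on low counts within FBs and HCs, and not within CMs or ECs. Calls of these members as lower in CMs or ECs than in FBs or HCs thus follow in part from the filter and add no support.

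Of the cluster's mature counts, without hairpin reads, miR-20a-5p made up the largest part in each cell type, on average 48.1% ± 5.25 (SD, n = 24) in HCs, 43.2% ± 7.74 in CMs, 41.9% ± 9.66 in ECs and 39.3% ± 9.86 in FBs. The share of miR-92a-3p varied most between cell types, from 2.1% in CMs and 3.72% in HCs to 9.11% in FBs and 21% in ECs. Within ECs it ran from 6.95% to 67.3% of the cluster, and its group means at D0 and D28 were 12.9% and 46.8%. In FBs the share of miR-19b-3p was lowest early after MI: it made up 26.6% of the cluster at D0, 13.8% at D1 and 12.3% at D3, and 24.6% again at D7. Since miRNAs are captured into libraries with unequal efficiency, shares are compared between groups and not read as molecules.

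**Figure D2:**
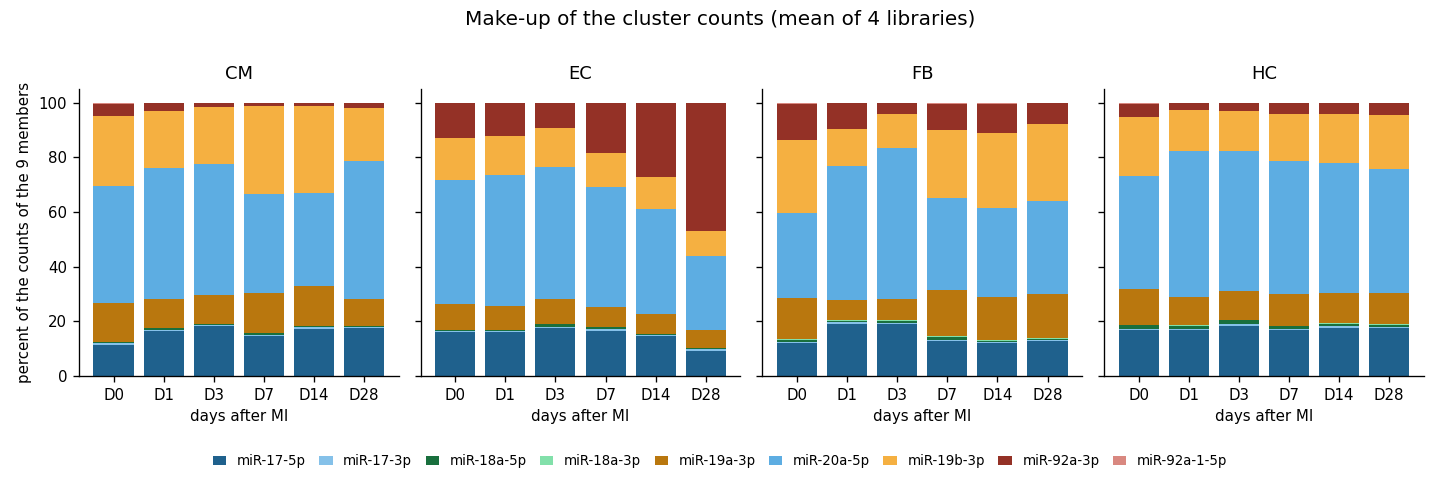
Percent of the cluster's mature counts held by each member (stacked bars that sum to 100 percent, mean of 4 libraries) in the 24 groups of cell type and day. miR-20a-5p is the largest part in 23 of the 24 bars, and the miR-92a-3p part is narrow in CMs and HCs and widest in ECs at D28.

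In CMs 6 of the 7 members tested rose after MI and stayed high from D3 to D14, all but miR-92a-3p. miR-17-5p was at 11.7, 2.34, 2.74 and 2.83 CPM in the 4 libraries at D0, at 9.06, 12, 166 and 126 at D1, at 51.7, 101, 308 and 209 at D3 and at 156, 285, 165 and 175 at D7. It stood at 217, 209, 240.4 and 287 CPM at D14 and at 39, 141, 144 and 131 at D28. From D3 on every library was above every D0 library, while at D1 replicates 1 and 2 were next to D0 replicate 1 and replicates 3 and 4 far above. By edgeR's quasi-likelihood test against D0 with TMM scaling, the log2 fold change of miR-17-5p was 2.43 ± 0.59, adjusted p = 0.00793 at D1, 3.12 ± 0.61, adjusted p = 0.000189 at D3 and 3.02 ± 0.60, adjusted p = 0.000156 at D7. At D14 and D28 it was 3.04 ± 0.60, adjusted p = 0.000156 and 2.71 ± 0.60, adjusted p = 0.000668. In bulk libraries such as these, more cells of a type and more RNA per cell cannot be told apart.

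miR-20a-5p, its seed partner, was at 55.5, 8.49, 9.47 and 9.41 CPM at D0 and at 463, 548, 471 and 414 at D7, with no overlap. Its log2 fold change was 2.26 ± 0.57, adjusted p = 0.0013 at D7 (edgeR). At D1 the miR-19 members miR-19a-3p and miR-19b-3p had log2 fold changes of 1.04 ± 0.51 and 1.14 ± 0.57, neither past the test (edgeR, adjusted p = 0.128 and 0.135). miR-19b-3p then went from 32.9, 7.01, 3.8 and 5.74 CPM at D0 to 264, 514, 458 and 507 at D7, a log2 fold change of 2.83 ± 0.60, adjusted p = 0.00025 (edgeR). miR-18a-5p was near the limit of detection at D0, with 5, 2, 3 and 1 counts, and its log2 fold change was 2.28 ± 0.50, adjusted p = 0.000567 at D3 and 2.49 ± 0.49, adjusted p = 0.000141 at D7 (edgeR). miR-17-3p, the other arm of the first hairpin, had 2, 0, 7 and 0 counts at D0 and rose from D3 on, by 3.25 ± 0.85, adjusted p = 0.00183 at D7 (edgeR). miR-18a-3p and miR-92a-1-5p had too few counts in CMs to be tested; miR-18a-3p had none at D0, and no fold is given.

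miR-92a-3p was low in CMs, though above miR-18a-5p, at 3.24, 0.92, 1.68 and 0.688 CPM at D0 and 13.1, 18.8, 11.6 and 9.84 at D7. Its libraries did not overlap between these days in CPM, yet with TMM its log2 fold change was 0.75 ± 0.41, adjusted p = 0.107 at D7, and it passed the edgeR test at D28 alone (0.98 ± 0.41, adjusted p = 0.0478), a call lost in 19 of the 24 fits that left out 1 library. Over the members, 2 of 7 tested passed at D1 and 6 of 7 at each later day, all higher. Of all 484 miRNAs tested, 13.6% were called higher at D1, 31.8% and 38.8% at D3 and D7, and 38.0% and 29.5% at D14 and D28, so the members' shares were well above this background from D3 on. The members' median log2 fold change was 2.69 at D7, against 0.35 over all tested miRNAs. When counts were scaled by library size alone, the median of all 484 shifted to 2.67 at D7 and 388 miRNAs were called higher and 31 lower, against 188 and 146 with TMM. On that scale miR-17-5p had a log2 fold change of 5.33 and miR-92a-3p of 3.04, both called, so miR-17-5p was above the median of all miRNAs under both scalings and miR-92a-3p stood nearer to it.

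Markers of other cells also rose in CMs, as sums in CPM without TMM scaling. With library size alone, 388 of the 484 miRNAs were called higher at D7, and the middle one rose by 2.67 in log2. A rise in CPM was thus common there and does not set these markers apart. Which marker sums rose beyond that shift was not tested. The 3 hematopoietic markers that were highest in HCs (miR-142a-3p, miR-142a-5p and miR-223-3p, picked after their levels were seen) summed to medians of 1.03, 12.2, 63.4, 41.8, 32.6 and 18.4 CPM at D0, D1, D3, D7, D14 and D28, against 5300 to 19420 in HCs. All 5 listed hematopoietic markers, with miR-150-5p and miR-155-5p, summed to 71.9, 174, 290.5, 409, 381 and 237 CPM, the summed fibroblast markers to 38.1, 262, 918, 1716, 2012 and 996 CPM. The endothelial ones summed to 6724, 13558, 17205, 21869, 24506 and 17892 CPM. At D1, where the libraries split, the 5 hematopoietic markers summed to 112, 90.9, 235 and 259 CPM and fibroblast markers to 93.4, 139.9, 401 and 385 CPM in replicates 1 to 4, high in the same replicates 3 and 4 as miR-17-5p. The 3 specific ones summed to 10.7, 6.55, 13.6 and 23.2 CPM. D0 replicate 1, the highest D0 library for miR-17-5p, also had the highest sums there, 154 CPM of hematopoietic and 114 CPM of fibroblast markers, and D28 replicate 1, the lowest of its group for miR-17-5p, had the lowest hematopoietic sum, 131 CPM, with 2.21 CPM of the 3 specific markers against 18.4 to 19.3 in the other 3. All 5 hematopoietic markers had counts in every CM library from D1 on, and 4 of 5 at D0. Their part in the result was not tested. Without D0 replicate 1 the log2 fold change of miR-17-5p was 3.26 at D1 and 3.48 at D28, and on the days between it was 3.86, 3.81 and 3.82. Without D1 replicate 3 it was 1.80 at D1. That of miR-20a-5p without D0 replicate 1 was 3.33 at D7, and 6 of 7 members passed there. That of miR-17-3p was higher without D0 replicate 3, at 4.87 at D7 and 4.77 at D14 (3.17 with it). Without D1 replicate 1, too, 6 of 7 passed at D1, and without D0 replicate 2 or 4 or D1 replicate 3 or 4 1 of 7 did. Without D0 replicate 2, 3 or 4 the count at D28 fell to 2 or 3 of 7.

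**Figure D3:**
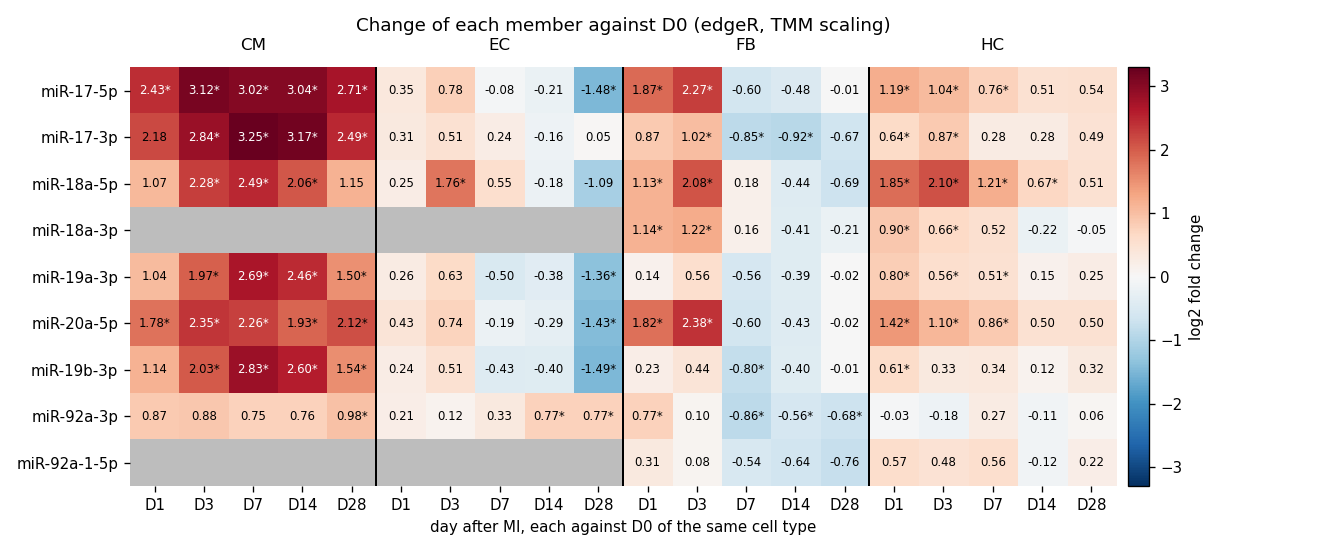
Log2 fold change against D0 (edgeR, TMM scaling) of the 9 members at D1, D3, D7, D14 and D28 in each cell type; red is higher and blue is lower than D0, a star marks an adjusted p under 0.05 and grey marks members not tested. CMs are red from D3 on except for the pale miR-92a-3p, and ECs are blue at D28 except for the red miR-92a-3p and the pale miR-17-3p. In FBs the miR-17 and miR-18 members are red at D1 and D3. The miR-19 pair is paler there, and miR-92a-3p and miR-92a-1-5p are pale at D3 (0.10 and 0.08). In HCs most members are red at D1, D3 and D7, while miR-92a-3p is pale (-0.03, -0.18 and 0.27).

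In ECs, in the fit of all 24 libraries, no more than 1 of 7 members passed the test on any day up to D14, and at D28 miR-17-5p, miR-20a-5p and the miR-19 pair fell while miR-92a-3p rose. miR-17-5p was at 255, 209.8, 224 and 269 CPM at D0 and at 207, 37.7, 18.9 and 84 at D28, where replicate 1 lay just under the D0 libraries and the other 3 far below. By edgeR's quasi-likelihood test its log2 fold change was -1.48 ± 0.40, adjusted p = 0.00301. miR-20a-5p went from 744, 612, 654 and 716 CPM to 489, 121, 48.7 and 315, a log2 fold change of -1.43 ± 0.41, adjusted p = 0.00531 (edgeR), again with replicate 1 nearest to D0. The miR-19 pair did likewise: miR-19a-3p was at 157, 159, 122 and 131 CPM at D0 and 91.3, 29, 18.9 and 68.9 at D28, without overlap. Its log2 fold change was -1.36 ± 0.36, adjusted p = 0.00298, and that of miR-19b-3p was -1.49 ± 0.40, adjusted p = 0.00329 (edgeR). miR-92a-3p was at 201, 213, 193 and 168 CPM at D0 and at 472, 412, 239 and 179.6 at D28, so that replicates 1 and 2 were above D0 and replicate 4 was within its range. Its log2 fold change was 0.77 ± 0.27, adjusted p = 0.0189 (edgeR), and this call was lost in 8 of the fits that left out 1 library, at 0.52 (edgeR, adjusted p = 0.116) without D28 replicate 1 and 0.47 (adjusted p = 0.149) without D28 replicate 2. It was lost as well without the filter on low counts (0.49, edgeR, adjusted p = 0.296) and with the D28 and D0 libraries alone (0.72, edgeR, adjusted p = 0.0908).

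At D28 5 of 7 tested members passed, 4 lower and 1 higher, against 20.2% of 421 miRNAs lower and 26.8% higher. miR-18a-5p, with a log2 fold change of -1.09 ± 0.56, adjusted p = 0.11, and miR-17-3p, with 0.05 ± 0.54, adjusted p = 0.949, did not pass (edgeR). The D28 libraries held 525651 to 3902765 counts, so that miR-17-5p rested on 109, 69, 12 and 328 counts. Without D28 replicate 1 the log2 fold change of miR-17-5p was -2.27, and without replicate 3 it was -1.15, with 5 of 7 members still past the test. Endothelial markers summed to 224231, 103768, 156470 and 116455 CPM in the D28 libraries, against 174749 to 215247 at D0, and erythroid markers to 1888 to 4246 CPM against 1058 to 2012. Their part in the result was not tested. At D3 miR-18a-5p rose from 6.64, 3.35, 6.16 and 6.17 to 18.4, 21.2, 16.5 and 20 CPM, without overlap, by 1.76 ± 0.40, adjusted p = 0.00237 (edgeR), and the 1 of 7 was close to the 15.4% of all miRNAs called higher. When the D3 and D0 libraries were fitted alone, 5 of 7 members were called higher. The share of all miRNAs called in that smaller fit is not given, so this count is not read as a result about the members. miR-17-5p at D3 was 326, 492, 357 and 503 CPM, a log2 fold change of 0.78 ± 0.38, adjusted p = 0.159 that did not pass. At D14 miR-92a-3p, at 298, 333, 303 and 629.7 CPM, had a log2 fold change of 0.77 ± 0.27, adjusted p = 0.0499 (edgeR), 1 of 7 members against 11.4% of all, and the call was lost in 19 of the 24 fits that left out 1 library. In the fits of all EC libraries no member passed at D1 or D7 by edgeR or DESeq2 (with D7 and D0 alone 1 was called lower), and none had an unadjusted p under 0.05, while 0.0% of all miRNAs passed at D1 and 22.6% at D7.

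In FBs miR-17-5p, miR-20a-5p, miR-18a-5p and miR-18a-3p rose at D1 and D3 and did not differ from D0 at D7 by the test. The miR-19 pair and miR-92a-3p had smaller changes at D1 and D3. miR-17-5p was at 88.8, 64.5, 154 and 155 CPM at D0, at 349, 313, 482 and 762 at D1, at 942, 982, 550.2 and 379 at D3 and at 98.3, 82, 89.1 and 89.8 at D7. Every D1 and D3 library was above every D0 library. By edgeR's quasi-likelihood test the log2 fold change was 1.87 ± 0.30, adjusted p = 0.000241 at D1 and 2.27 ± 0.31, adjusted p = 2.60e-06 at D3, and it was -0.60 ± 0.30, adjusted p = 0.103 at D7. miR-20a-5p went from 208, 145, 421 and 458 CPM at D0 to 2603, 2679, 1591 and 1280.2 at D3, by 2.38 ± 0.32, adjusted p = 2.60e-06 (edgeR). miR-18a-5p, from the second hairpin, went from 5.21, 3.16, 9.15 and 6.56 to 45.4, 46.7, 23.7 and 21.9 CPM, by 2.08 ± 0.31, adjusted p = 8.52e-06 (edgeR). Both were without overlap between D0 and D3.

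miR-19a-3p was at 109.8, 79.4, 186 and 214 CPM at D0 and 413, 268, 208 and 219 at D3, where 2 of the D3 libraries lay within or next to the D0 range. Its log2 fold change was 0.56 ± 0.28, adjusted p = 0.114 (edgeR). miR-19b-3p was at 218, 125, 319 and 365 CPM at D0 and 676, 386, 357 and 346 at D3, a log2 fold change of 0.44 ± 0.28, adjusted p = 0.222 (edgeR). Neither passed the test, at D1 or at D3. miR-92a-3p was at 115, 121, 102 and 89.3 CPM at D0, 241, 158, 253 and 180.0 at D1, 130.0, 189, 130.0 and 125 at D3 and 72.3, 58.5, 72 and 71.6 at D7. It was higher at D1 by 0.77 ± 0.20, adjusted p = 0.0151, did not pass at D3 (0.10 ± 0.20, adjusted p = 0.724), and was lower at D7 by -0.86 ± 0.20, adjusted p = 0.00119 (edgeR), when every library was below every D0 library. The passenger arms miR-17-3p and miR-18a-3p rose at D3 by 1.02 ± 0.31, adjusted p = 0.00939 and 1.22 ± 0.36, adjusted p = 0.00835 (edgeR), while miR-92a-1-5p had 0.08 ± 0.26, adjusted p = 0.946.

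In all, 5 of 9 members were higher at D1, where 5.86% of 563 miRNAs were, and 5 of 9 at D3, where 22.9% were. Lower calls followed for 3 of 9 at D7 (miR-17-3p, miR-19b-3p and miR-92a-3p, background 21.1%), 2 of 9 at D14 (miR-17-3p and miR-92a-3p, 10.3%) and 1 of 9 at D28 (miR-92a-3p, 1.95%). The number of later calls moved with D0 replicate 2, which had the lowest miR-17-5p and miR-19b-3p among the D0 libraries: without it 6 of 9 members passed at D7, 1 at D14 and none at D28, and without D0 replicate 3 or 4 or D7 replicate 4 1 of 9 did. At D1 the count was 3 of 9 without D0 replicate 1 or 4 or D1 replicate 3 or 4. The call of miR-92a-3p was -0.56 ± 0.20 at D14 (adjusted p = 0.042) and -0.68 ± 0.20 at D28 (adjusted p = 0.0369) by edgeR. Both calls at D14 were lost with library size alone, without the filter on low counts, with the D14 and D0 libraries alone and with the replicate number as a block. The 3 hematopoietic markers that were highest in HCs (miR-142a-3p, miR-142a-5p and miR-223-3p) summed in FBs to medians of 58.1, 81.6, 99.2, 31.4, 25.2 and 29.4 CPM at D0, D1, D3, D7, D14 and D28. They overlapped between D0 (36.1 to 121 CPM) and D3 (32.2 to 115). All 5 listed hematopoietic markers summed in FBs to medians of 236, 327, 305, 164, 215 and 116 CPM on the same days. In that sum every D1 library was above every D0 library, D3 overlapped D0, and every D7 library was below D0. The erythroid markers summed to medians of 1301, 2130, 2440, 728, 705 and 390 CPM, with D1, D3 and D7 overlapping D0. The part of these markers in the result was not tested.

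In HCs, where the cluster was already highest at D0, the miR-17, miR-18 and miR-19 members rose at D1 and 4 of them were higher at D7 too, while miR-92a-3p passed the test on no day. miR-17-5p was at 604, 418, 820.3 and 514 CPM at D0, 1078, 1345, 1983 and 2078 at D1, 1860.2, 1540.0, 945 and 1957 at D3 and 816, 1123, 784 and 1032 at D28. Every library at D1 and D3 was above every D0 library, although D0 replicate 3 rested on 15 counts. Its log2 fold change by edgeR's quasi-likelihood test was 1.19 ± 0.23, adjusted p = 0.000139 at D1, 1.04 ± 0.23, adjusted p = 0.000429 at D3 and 0.76 ± 0.23, adjusted p = 0.0082 at D7. miR-20a-5p went from 1838, 1241, 1039 and 1568 CPM at D0 to 3442, 4295, 6206 and 6583 at D1, by 1.42 ± 0.24, adjusted p = 2.45e-05 (edgeR), without overlap. The largest log2 fold change at D1 and D3 was that of miR-18a-5p, which went from 20.1, 19.2, 109 and 24 CPM at D0 to 150.0, 156, 77.8 and 167 at D3, where the D0 value of replicate 3 stood for 2 counts. Its log2 fold change was 1.85 ± 0.25, adjusted p = 1.05e-06 at D1 and 2.10 ± 0.25, adjusted p = 6.96e-08 at D3 (edgeR). miR-19a-3p and miR-19b-3p rose at D1 by 0.80 ± 0.20, adjusted p = 0.00179 and 0.61 ± 0.21, adjusted p = 0.0164 (edgeR). miR-92a-3p was at 201, 171, 109 and 174 CPM at D0 and 234, 190.4, 229 and 279 at D1, overlapping, with a log2 fold change of -0.03 ± 0.24, adjusted p = 0.926 (edgeR).

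Of the 9 members tested in HCs, 7 were higher at D1 (background 25.3% of 608 miRNAs), 6 at D3 (30.9%), 4 at D7 (29.9%) and 1 at D14 (15.3%), and none was lower. Without D0 replicate 3 the counts were the same, 7 at D1, 6 at D3, 4 at D7 and 1 at D14, and the log2 fold changes at D1 were 1.22 for miR-17-5p and 1.28 for miR-20a-5p. Markers moved with the rise. The 5 hematopoietic markers summed to 6921 to 10332 CPM at D0 and 18361 to 25848 at D1. The endothelial ones summed to 54905 to 91837 at D0, 33177 to 56859 at D1 and 14781 to 21541 at D3. The cardiomyocyte ones summed to 85776 to 132287 at D0 and 38493 to 64736 at D3. Their part in the result was not tested. The members' median log2 fold change was 0.80 at D1 and 0.66 at D3, against -0.08 and 0.02 over all tested miRNAs. The 4 at D7 were miR-17-5p, miR-18a-5p, miR-19a-3p and miR-20a-5p, and the 1 at D14 was miR-18a-5p (0.67 ± 0.24, adjusted p = 0.035, edgeR). At D28 none passed by edgeR or DESeq2 in fits of all HC libraries with TMM or DESeq2 scaling, 4 had an unadjusted p under 0.05 in edgeR, and 6 of 9 passed by edgeR when the D28 and D0 libraries were fitted alone. In the fit of all libraries 12.7% of all miRNAs were higher and 11.3% lower. The share in the fit of D28 and D0 alone is not given, so the 6 of 9 stands without a background. Without D7 replicate 2, the highest of its group for miR-18a-5p, 1 of 9 passed at D7 and miR-17-5p had 0.46 (edgeR, adjusted p = 0.0911), while without D3 replicate 1, 2 or 4 or D7 replicate 3 the count was 7 at D7 and 4 at D28. Scaled by library size alone, the medians of all miRNAs shifted by 0.28 to 0.52, and 9 of 9 passed at D7 and 4 of 9 at D28, all higher. On that scale 281 of 608 miRNAs were called higher at D7 and 183 at D28. No member of the cluster called in ECs, FBs or HCs turned its direction with that scaling.

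The time course differed between cell types in 8 of 9 members by the interaction test of the 96-library edgeR fit, all but miR-92a-1-5p (adjusted p = 0.307), against 76.3% of all 712 miRNAs. The change of 1 cell type was then set against the mean change of the other 3 on the same day. In CMs 3 of 9 members exceeded it at D1, 6 at D3 and 7 at each of D7, D14 and D28 (backgrounds 15.9, 27.9, 28.2, 26.5 and 23.9%), by 3.37 ± 0.50, adjusted p = 1.73e-08 for miR-17-5p at D7 (edgeR). In ECs at D28 5 of 9 members were below the mean of the others, which includes the CM rise (background 22.5%), miR-17-5p by -2.90 ± 0.49, adjusted p = 1.35e-06 (edgeR). Against D0 of ECs alone miR-17-5p had -1.48 ± 0.40. In FBs no member differed at D1 or D3, where 2.81 and 7.87% of all miRNAs did, with 0.63 ± 0.47, adjusted p = 0.438 for miR-17-5p at D3, so the early FB rise was not shown to differ from that of the other cell types. At D7 and D14 8 and 7 of 9 members in FBs were lower than the mean of the others, which includes the CM rise (backgrounds 20.2 and 18.5%). In HCs miR-92a-3p was lower at D1, by -0.85 ± 0.33, adjusted p = 0.0463, and miR-17-5p at D3, by -1.21 ± 0.47, adjusted p = 0.0398 (edgeR), 1 of 9 members each against 19.9 and 27.2% of all. The mean of the others includes CMs here too, and miR-17-5p itself rose in HCs at D3 against D0 (1.04 ± 0.23).

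Whether members moved together was measured within each library by their ratio to miR-17-5p, which does not depend on the scaling (log2 of counts plus 0.5, limma across all miRNAs of a cell type). Over the 24 libraries of a cell type the SD of the log2 ratio of miR-20a-5p was 0.135 in FBs, 0.183 in ECs, 0.27 in HCs and 0.341 in CMs, and that of miR-19a-3p, the next steadiest over all libraries, was 0.853, 0.348, 0.226 and 0.59. The latter was smaller in HCs alone. The mean ratio of miR-20a-5p to miR-17-5p by day (D0, D1, D3, D7, D14 and D28) was 2.55, 2.56, 2.93, 2.65, 2.72 and 2.64 in FBs, 2.43, 3.17, 2.82, 2.9, 2.71 and 2.63 in HCs and 2.85, 3.02, 2.75, 2.66, 2.58 and 2.9 in ECs. The test over the 6 days gave an adjusted p of 0.936, 0.728 and 0.966 there (limma). In CMs the ratio was 3.72, 2.96, 2.63, 2.49, 1.97 and 2.87, with an adjusted p of 0.17 over the days and a lower ratio at D14 (-0.92 ± 0.32, adjusted p = 0.0129, limma). At D3 in FBs, where both rose, the difference of miR-20a-5p from miR-17-5p was 0.20 ± 0.21, adjusted p = 0.366 (limma).

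miR-92a-3p departed from miR-17-5p in CMs, ECs and FBs, and at the threshold in HCs. In CMs its mean ratio to miR-17-5p was 0.364, 0.154, 0.0807, 0.0686, 0.0677 and 0.104 at D0, D1, D3, D7, D14 and D28, and the change at D7 was -2.41 ± 0.45, adjusted p = 7.36e-05 (limma). The ratio in ECs was 0.809, 0.719, 0.514, 1.09, 1.63 and 5.03, turning from under 1 at D0 to over 1 at D28, by 2.64 ± 0.55, adjusted p = 0.000324 (limma). In FBs it was 0.982, 0.456, 0.213, 0.763, 0.849 and 0.577, lowest at D3 with -2.20 ± 0.38, adjusted p = 1.47e-05, and in HCs 0.294, 0.148, 0.146, 0.227, 0.221 and 0.244, with -0.99 ± 0.33, adjusted p = 0.0112 at D1 (limma). The median log2 change against miR-17-5p over all tested miRNAs was -2.92 (CM D7), 1.81 (EC D28), -2.24 (FB D3) and -1.70 (HC D1). On these days miR-92a-3p departed further than the median miRNA in ECs, and no further in CMs, FBs and HCs. For miR-92a-3p the adjusted p over the 6 days was 9.46e-05 (FB), 0.00025 (EC), 0.000359 (CM) and 0.0491 (HC, limma). The HC count of departing members, 1 of 8, moved in 19 of the 24 fits that left out 1 library (0 to 3, with 3 without D0 replicate 3), and was 0 with the replicate number as a block, without D0 replicate 4, and of 6 with the mean of 3 members as reference. The miR-19 pair departed in FBs: miR-19b-3p had a mean ratio of 2.19, 0.72, 0.64, 1.92, 2.29 and 2.21, and had log2 changes against miR-17-5p of -1.61 ± 0.26, adjusted p = 1.79e-05 at D1 and -1.78 ± 0.26, adjusted p = 1.52e-06 at D3 (limma). miR-19a-3p had -1.69 ± 0.25, adjusted p = 9.90e-06 and -1.65 ± 0.25, adjusted p = 2.84e-06 (limma). The medians over all miRNAs were -1.86 at D1 and -2.24 at D3 there.

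Within the miR-19 pair the ratio of miR-19b-3p to miR-19a-3p had a median of 1.68 over the 96 libraries, and in the 88 libraries with at least 100 miR-19a-3p counts it stayed between 1.33 and 2.42. The pair differs by 1 base, so reads with 1 sequencing error could count for either. Counted over members, the ratio to miR-17-5p changed over the 6 days in 7 of 8 in FBs, 1 of 8 in HCs, 1 of 6 in CMs and 1 of 6 in ECs (limma, adjusted p under 0.05). Among all tested miRNAs 98.6, 60.5, 83.2 and 72.4% changed against miR-17-5p, so the members' shares were below that background in CMs, ECs and HCs and near it in FBs. In CMs miR-19a-3p, miR-19b-3p and miR-18a-5p lay at the threshold, with adjusted p of 0.0501, 0.052 and 0.0528 (limma), and with a pseudocount of 5 in place of 0.5 5 of 6 passed. All these ratios share 1 reference, miR-17-5p. As a description over the 24 group means, the Pearson correlation of log2 CPM (TMM scale, centred within each cell type) with the mean of the other abundant members was 0.975 for miR-17-5p, 0.929 for miR-20a-5p, 0.902 for miR-19a-3p and 0.896 for miR-19b-3p, and 0.499 for miR-92a-3p. The points of 1 cell type share its preparation.

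**Figure D4:**
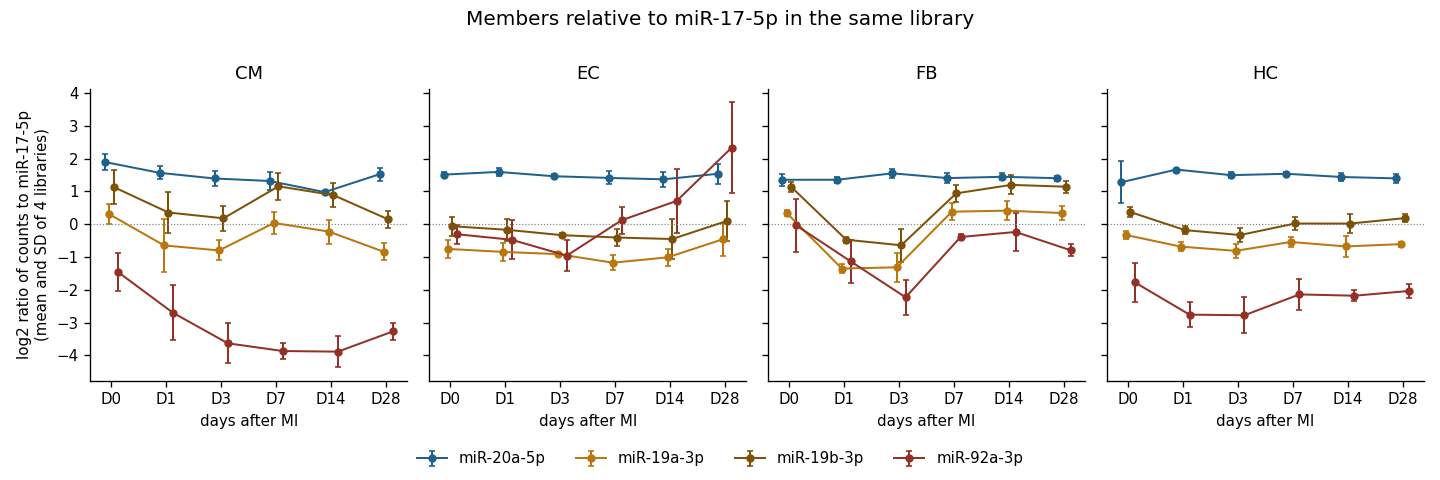
Log2 ratio of miR-20a-5p, miR-19a-3p, miR-19b-3p and miR-92a-3p to miR-17-5p within each library (counts plus 0.5) by day after MI, 1 panel per cell type; points are means of 4 libraries and bars are SD. The miR-20a-5p line stays nearly level in ECs, FBs and HCs and drops in CMs to D14, the miR-19 lines drop at D1 and D3 in FBs, and the miR-92a-3p line falls in CMs and FBs and climbs in ECs to D28.

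The 2 arms of a hairpin were compared in the same way, for miR-17 in all cell types and for miR-18a and miR-92a-1 in FBs and HCs. The 5p arm was the abundant one for miR-17, with medians of 1023 CPM against 31.2 for miR-17-3p in HCs. In FBs the ratio of miR-17-5p to miR-17-3p changed over the days (limma, adjusted p = 0.016) and was higher at D3 by 1.21 ± 0.28, adjusted p = 0.00422. In HCs the ratio of miR-18a-5p to miR-18a-3p changed (adjusted p = 0.00495) and was higher by 1.02 ± 0.23, adjusted p = 0.00699 at D1 and 1.44 ± 0.23, adjusted p = 0.00016 at D3 (limma). These were 1 of 3 hairpins in FBs and 1 of 3 in HCs, against 49.0% and 16.5% of all hairpins tested. The miR-17 arms did not pass in CMs, ECs or HCs (limma, adjusted p = 0.813, 0.127 and 0.154, backgrounds 71.2% and 38.9% in the first 2), nor did miR-92a-1 in FBs or HCs (0.237 and 0.739) or miR-18a in FBs (0.264).

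Reads that matched no mature sequence were aligned to the hairpins, which gave a second count per hairpin (in CPM of hairpin counts), chosen for use after the mature data were seen. For the other 5 hairpins it was less than the mature count, with medians by cell type of 0.0382 (mir-19b-1 in CMs) to 0.585 (mir-17 in FBs) hairpin counts per mature count, but mir-92a-1 had 41.4 hairpin counts per miR-92a-3p count in CMs, 28.7 in HCs, 26.9 in FBs and 17.5 in ECs. Its hairpin is shown because most of the reads at this locus were counted there and not as mature miR-92a-3p. It lies at chr14:115044427-115044506 on the plus strand (RefSeq, GRCm38.p6), with both mature arms in capitals.
Mir92-1: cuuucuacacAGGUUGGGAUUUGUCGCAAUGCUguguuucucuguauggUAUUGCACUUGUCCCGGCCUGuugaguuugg
In which part of the hairpin these reads lie is not given by the counts. Reads of mir-92a-1 and mir-92a-2, and of mir-19b-1 and mir-19b-2, can be shared between the 2 hairpins, so these values are uncertain as to locus.

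In FBs at D3 mir-17 rose by 2.64 ± 0.22, adjusted p = 1.14e-09 and mir-20a by 2.84 ± 0.26, adjusted p = 3.64e-09, while mir-92a-1 had -0.01 ± 0.16, adjusted p = 0.945 (edgeR). By hairpin counts mir-19a and mir-19b-1 rose there, too, by 1.19 ± 0.29, adjusted p = 0.0018 and 1.02 ± 0.26, adjusted p = 0.0032 (edgeR), which their mature forms did not by the same test, the background being 27.0% of 456 hairpins. In ECs at D28 mir-19b-1 fell (-2.09 ± 0.47, adjusted p = 0.00069), mir-20a and mir-19a fell (-1.28 ± 0.35, adjusted p = 0.0029, and -1.22 ± 0.39, adjusted p = 0.00841), mir-17 did not pass (-0.72 ± 0.32, adjusted p = 0.0532), and mir-92a-1 rose by 1.12 ± 0.24, adjusted p = 0.000482 (edgeR, backgrounds 27.1% lower and 33.0% higher of 321). mir-92a-1 in ECs had group medians of 9503 CPM at D0 and 25639.9 at D28. In HCs at D1 mir-17 and mir-20a rose by 1.05 ± 0.24, adjusted p = 0.000628 and 1.07 ± 0.18, adjusted p = 2.09e-05, and mir-92a-1 had -0.17 ± 0.21, adjusted p = 0.494 (edgeR).

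Mature and hairpin calls of the same locus also differed elsewhere: mir-17 rose in ECs at D3 by 1.35 ± 0.31, adjusted p = 0.00204 (edgeR), where miR-17-5p did not pass. In CMs mir-17 rose at every day, by 2.82 ± 0.49, adjusted p = 9.09e-05 at D3, whereas mir-92a-1 was called lower at all 5 days with TMM, from -0.58 ± 0.19, adjusted p = 0.0338 at D1 to -1.06 ± 0.20, adjusted p = 7.36e-05 at D14 (edgeR). Its group medians were 581, 667, 748, 676, 769 and 637 CPM of hairpin counts at D0, D1, D3, D7, D14 and D28. These do not fall, and with library size alone the log2 fold changes were 0.18, 0.32, 0.18, 0.37 and 0.04 at D1, D3, D7, D14 and D28, none below 0. The direction of mir-92a-1 in CMs therefore turned with the scaling, while mir-17 was higher under both, and mir-92a-1 stayed behind mir-17 under both.

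**Figure D5:**
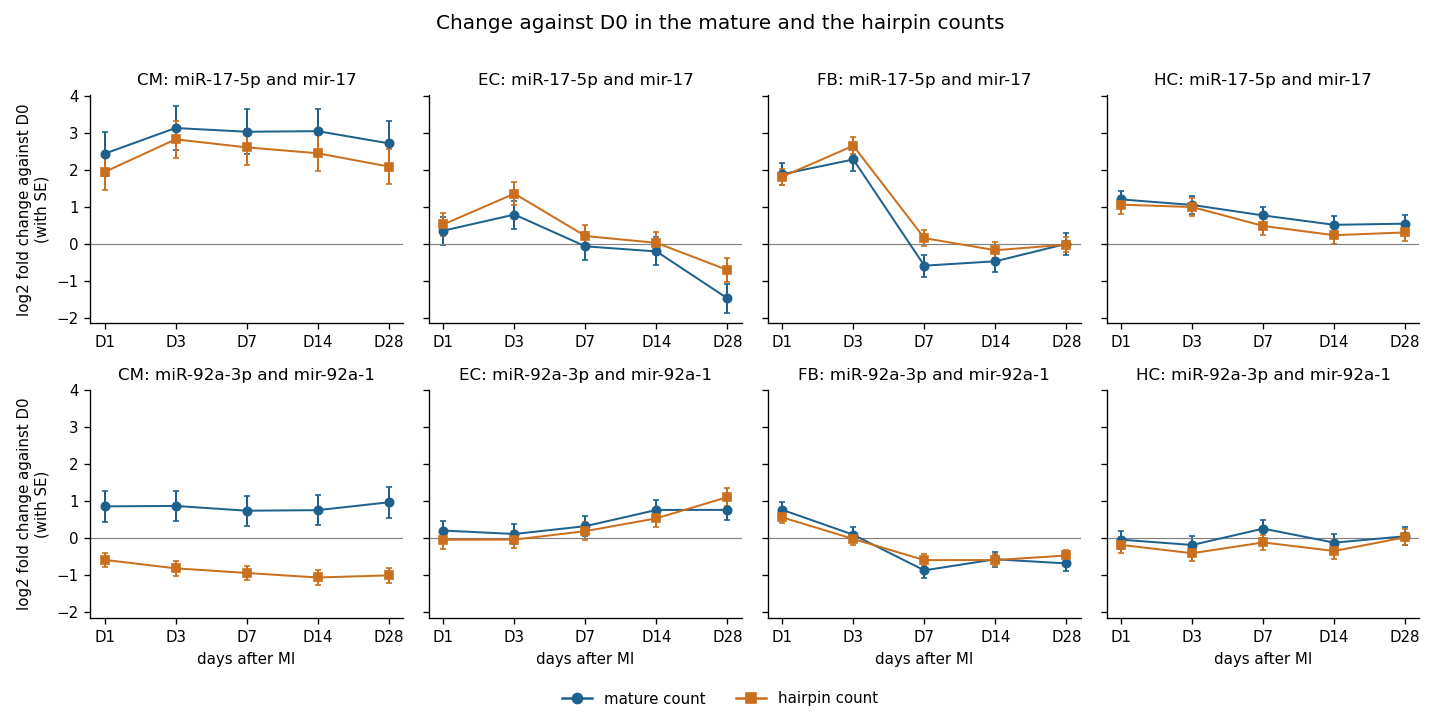
Log2 fold change against D0 (edgeR, TMM scaling, bars are SE) by day after MI for miR-17-5p and its hairpin mir-17, and for miR-92a-3p and its hairpin mir-92a-1, 1 panel per cell type. The first pair parts at D28 in ECs (-1.48 and -0.72) and at D7 in FBs (-0.60 and 0.15), and in CMs mir-92a-1 lies below 0 with this scaling and miR-92a-3p above it.

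Other miRNAs carry the same seeds from other loci: miR-106a-5p from the X-linked miR-106a-363 cluster, miR-106b-5p and miR-93-5p (miR-17 seed) and miR-25-3p (miR-92 seed) from the cluster in an intron of Mcm7. Of the 5 paralogs tested in CMs, 4 were higher and 1 lower at D3, D7, D14 and D28. miR-93-5p rose at D7 by 1.94 ± 0.44, adjusted p = 0.000571 and miR-106b-5p by 4.27 ± 0.65, adjusted p = 8.18e-06, while miR-25-3p fell, by -1.61 ± 0.22, adjusted p = 1.78e-06 (edgeR). In ECs at D28 4 of 5 were lower and miR-25-3p was higher by 0.82 ± 0.22, adjusted p = 0.00287, and the direction did not divide by seed. Of 2 further miRNAs with the miR-92 seed, miR-32-5p fell by -1.74 ± 0.47, adjusted p = 0.00362 and miR-92b-3p had 0.64 ± 0.28, adjusted p = 0.0663 (edgeR). In FBs 4 of 5 were higher at D1 and at D3, miR-93-5p by 1.44 ± 0.27, adjusted p = 9.49e-05 at D3, and miR-25-3p had 0.02 ± 0.15, adjusted p = 0.932 (edgeR). In HCs 5 of 7 were higher at D1, 4 at D3 and 6 at D7. The near-copy miR-106a-5p, 1 of the paralogs counted above, followed miR-17-5p throughout, with 2.25 ± 0.32, adjusted p = 4.22e-06 (edgeR) in FBs at D3. Its ratio to miR-17-5p was 0.578 to 1 in all libraries, and with 1 base between them its counts are uncertain. Its cluster partners had low levels in CMs, ECs and FBs, and higher ones in HCs. The median ratio of miR-20b-5p to miR-20a-5p was 0.00644, and miR-18b-5p and miR-363-3p had medians of at most 0.249 CPM in CMs, ECs and FBs. In HCs miR-20b-5p had a median of 50.3 CPM, above the 31.2 of the member miR-17-3p, miR-363-3p 15.7 and miR-18b-5p 3.28. At D7 these 3 rose in HCs, by 2.77 ± 0.64, adjusted p = 0.000825, 2.69 ± 0.61, adjusted p = 0.000712 and 4.44 ± 0.86, adjusted p = 0.000133 (edgeR). How many miR-106a-5p counts stem from miR-17-5p was not tested.

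By a search over 186 abundant miRNAs that are no members, the 5 whose 24 group means followed the mean of the abundant members most closely were miR-106a-5p (Pearson r = 0.986), miR-93-5p (0.967), miR-30b-5p (0.958), miR-106b-5p (0.934) and miR-362-5p (0.932), where the median candidate had 0.0468. This is a description over 24 means of log2 CPM, centred within each cell type, that share libraries and scaling within a cell type, and miR-30b-5p and miR-362-5p carry other seeds. The counts of miR-106a-5p may hold reads of miR-17-5p, from which it differs by 1 base. Other arms of the cluster were nearly absent: miR-19a-5p had 17 counts over all 96 libraries, in FBs and HCs alone, and miR-20a-3p and miR-19b-1-5p stayed at or under 1.6 CPM.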

How the data were processed

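Small RNA libraries of 96 samples (24 groups of 4) were analysed from the tables the authors deposited. The deposited values are whole-number counts of reads per mature miRNA and per hairpin, which the authors made with the nf-core smrnaseq pipeline. Reads were trimmed, reads under 18 nt were dropped, and the rest was aligned to the mature miRNAs of miRBase (version 21) and what was left to the hairpins. The submitters' processing notes name Trim Galore, Bowtie2, SAMtools and mm10. How reads with several matches were counted is not given in the sources used here. The line of unmatched reads, 25.6 to 83.0% of the reads of a mature table, entered neither library sizes nor tests. CPM divides by the counts assigned to mature miRNAs (hairpin CPM by those assigned to hairpins), and intervals are not given since PCR reads without molecular identifiers are not independent molecules.

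Groups came from the labels. All 96 libraries entered the fits, whereas the study left out the replicates that varied most within some groups; fits without such libraries were run as alternatives. Days were compared with D0 in each cell type with edgeR (version 4.0.16, R 4.3.3), by the quasi-likelihood test with TMM scaling after filterByExpr, and p-values were adjusted by Benjamini-Hochberg over all tested miRNAs (484 in CMs, 421 in ECs, 563 in FBs, 608 in HCs). All days share the D0 libraries. Cell types and interactions were tested in 1 fit of 96 libraries and 712 miRNAs. Ratios to miR-17-5p and arm ratios (arms with a mean of at least 10 counts) were tested with limma (version 3.58.1) on log2 of counts plus 0.5. Scripts were tested on simulated counts. The alternatives were library size, DESeq2 (version 1.42.0), no filter, the day and D0 alone, a replicate block, libraries left out, a pseudocount of 5 and another reference. The hairpin counts were added after the data were seen. No pair of libraries was identical (lowest chi-square per degree of freedom 9.16).

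Named are the 9 members, the other arms and paralogs, miRNAs with a member's seed, the 5 of most similar profile and the cell type markers. The members and lists were chosen with earlier results of these data known. Sequences come from RefSeq (1679 of 1978 names matched, 84.9%) and the locus from GENCODE M21. Equal replicate numbers did not pair the days of a cell type. Libraries of different cell types on a day come from the same animals, per the study's methods, and the fit of 96 libraries treats them as independent.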

Additional observations from a re-analysis of the deposited data

Results flagged for a closer look

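Some single libraries lay far from the other 3 of their group, by Dixon's test on log2 CPM; over so many groups chance alone gives about 1 in 20, and no cause was tested. In CMs, D0 replicate 1 had 11.7 CPM of miR-17-5p against 2.34 to 2.83 in the others and 55.5 CPM of miR-20a-5p against 8.49 to 9.47. D28 replicate 1 was low there, with 39.0 CPM of miR-17-5p against 131 to 144, 137 CPM of miR-20a-5p against 363 to 378 and 0.369 CPM of miR-18a-5p against 1.98 to 2.35. D14 replicate 2 had 0.580 CPM of miR-92a-1-5p against 0.870 to 0.905. In ECs, D0 replicate 2 had 3.35 CPM of miR-18a-5p against 6.16 to 6.64, and D14 replicate 4 had 629.7 CPM of miR-92a-3p against 298 to 333.

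In FBs, D7 replicate 2 was low in miR-17-3p, at 1.04 CPM against 3.32 to 3.87, and in miR-92a-3p, at 58.5 against 71.6 to 72.3. D3 replicate 1 was high in miR-19b-3p, at 676 CPM against 346 to 386, and D3 replicate 2 in miR-92a-3p, at 189 against 125 to 130.04. D14 replicate 1 had 75.4 CPM of miR-19a-3p against 122 to 132. At D28 replicate 1 had 0.221 CPM of miR-18a-3p against 0.887 to 1.05, and replicate 3 had 2.11 CPM of miR-92a-1-5p against 1.41 to 1.5.

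In HCs, D0 replicate 3, the library of 18286 counts, had 0 CPM of miR-17-3p against 16.7 to 24.5 and 0 CPM of miR-18a-3p against 3.62 to 5.02, which its depth could not have shown. It had 109 CPM of miR-18a-5p, or 2 counts, against 19.2 to 23.96, and 54.7 CPM of miR-92a-1-5p, or 1 count, against 4.24 to 5.14. D3 replicate 3 was low, with 77.8 CPM of miR-18a-5p against 150.03 to 167 and 505 CPM of miR-19a-3p against 983 to 1086, and D7 replicate 2 was high, with 104 CPM of miR-18a-5p against 52.7 to 58.6. At D14 replicate 4 had 4.21 CPM of miR-18a-3p against 4.72 to 4.80, replicate 1 had 2089.7 CPM of miR-20a-5p against 2683 to 2726, and replicate 2 had 3.97 CPM of miR-92a-1-5p against 5.80 to 6.04.

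The change over days differed between cell types in 8 of 9 members by edgeR's interaction test, a share near the 76.3% of all 712 miRNAs. The adjusted p was 1.69e-10 for miR-17-5p, 2.64e-08 for miR-20a-5p, 3.08e-08 for miR-19a-3p and 9.91e-08 for miR-19b-3p (edgeR). It was 1.96e-07 for miR-18a-5p, 2.36e-07 for miR-92a-3p, 1.11e-05 for miR-17-3p and 0.0127 for miR-18a-3p (edgeR).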

How the results depend on the processing

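Of 255 recomputed counts of called members, 198 stayed within 1.5 times the reported one, and 57 moved; except where stated, the cause was not tested. Each value below is set against the reported one, without the share of all miRNAs called under that setting. These counts therefore show how far the reported ones moved, and no result about the members. Among single calls of members and hairpins, none turned its direction in the 5376 values from fits that left out 1 library, of which 270 lost the call, and 5 of 1121 values under other settings did. These 5 were the mir-92a-1 hairpin in CMs, with library size as the only scaling, at 0.18 (D1), 0.32 (D3), 0.18 (D7), 0.37 (D14) and 0.044 (D28) on the log2 scale. The HC D28 and EC D28 comparisons and all calls in CMs are limited by depth or by scaling, and GC content of the miRNAs correlated with log2 fold change in ECs at D28 with rho = 0.315 across miRNAs, which are not independent replicates.

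With library size only, the counts were 7 of 7 against 2 (CM D1), 9 against 4 (HC D7), 4 against 1 (HC D14), 4 against 0 (HC D28), 1 against 3 (FB D7), 0 against 2 (FB D14), 2 against 1 (FB D28), 8 against 2 (CM and EC), 8 against 3 (CM and FB) and 2 against 1 (EC and FB). Hairpins went from 0 to 1 (EC D14), 1 to 2 (FB D14), 0 to 1 (FB D28), 0 to 1 (HC D28) and 1 to 3 (HC D7). With DESeq2 they were 3 against 1 (HC D14) and 2 against 1 (EC and FB). With the libraries of the day and D0 alone, which leaves fewer samples to the fit, they were 0 against 2 (CM D1), 5 against 1 (EC D3), 1 against 0 (EC D7), 0 against 1 (EC D14), 3 against 5 (FB D1), 0 against 2 (FB D14), 2 against 1 (HC D14) and 6 against 0 (HC D28). Without the filter on low counts they were 6 of 9 against 2 of 7 (CM D1), 0 against 1 (EC D14), 0 against 2 (FB D14), 0 against 1 (FB D28), 0 against 1 (HC D14) and 2 against 1 (EC and FB).

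Without replicate 4 of EC D28, FB D0 and HC D0, groups of which a plot of the study shows 3 libraries, the counts were 3 against 5 (FB D1), 1 against 3 (FB D7), 1 against 2 (FB D14), 0 against 1 (HC D14), 1 against 2 (CM and EC) and 3 against 1 (EC and FB), and for ratios to miR-17-5p 3 against 1 in ECs and 0 against 1 in HCs. Without the library of each of these groups that was least like the others (replicates 3, 2 and 3) they were 6 against 3 (FB D7), 1 against 2 (FB D14) and 0 against 1 (FB D28), 3 against 1 for HC ratios and 2 against 1 for HC arm ratios. A pseudocount of 5 gave 5 against 1 ratio in CMs, 3 against 1 in ECs, and 1 against 0 arm ratios in CMs and in ECs. With the mean of 3 members as reference, 4 of 6 against 7 of 8 ratios changed in FBs and 0 against 1 in HCs. At D0 alone 8 against 2 members differed between CMs and ECs, 9 against 3 between CMs and FBs, 4 against 1 between ECs and FBs, and 3 against 9 between ECs and HCs.

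With the replicate number as a block, the count was 0 against 1 at EC D14, 0 against 2 at FB D14 and 0 against 1 for HC ratios, and the 36 other counts stayed within 1.5 times. Same-numbered libraries of a cell type did not deviate together (median r of -0.0131 to 0.0244), and 6 to 9 of the 24 libraries of a cell type correlated best with their own number, so the libraries of 1 cell type share only a number across days. The cell types of a day come from the same animals, but that equal numbers mark the same pool is not stated; their libraries of a day and number had a median r of 0.0923 against -0.0276 for other numbers. With day and number together as the block, all 7 counts of the comparisons between cell types were the same.

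When each library was left out in turn, counts of members changed against D0 ran from 1 to 6 (CM D1), 6 to 7 (CM D3, D7 and D14), 2 to 7 (CM D28), 0 to 1 (EC D14), 4 to 5 (EC D28), 3 to 6 (FB D1), 5 to 6 (FB D3), 1 to 6 (FB D7), 0 to 2 (FB D14), 0 to 1 (FB D28), 5 to 8 (HC D1), 4 to 8 (HC D3), 1 to 7 (HC D7), 0 to 3 (HC D14) and 0 to 4 (HC D28). Over the 6 days they ran from 4 to 6 in CMs, 5 to 6 in ECs, 8 to 9 in FBs and 6 to 8 in HCs. Between cell types they ran from 1 to 2 (CM and EC, 1 without EC D28 replicate 4), 8 to 9 (CM and HC), 1 to 2 (EC and FB) and 8 to 9 (EC and HC). Ratios to miR-17-5p ran from 1 to 4 in CMs (4 without D1 replicate 1 or 2), 1 to 3 in ECs (3 without D28 replicate 4), 6 to 7 in FBs and 0 to 3 in HCs, and arm ratios from 1 to 2 in FBs (2 without D14 replicate 1) and in HCs (2 without D0 replicate 3). The other counts were the same throughout.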
